A study of Mus musculus and Homo sapiens with 18 samples.

Results

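The genes described here were 37 interferon-stimulated genes, taken from a fixed list of mouse symbols and followed through 3 RNA-seq experiments on loss of the RNA-binding protein Quaking, encoded by Qk in mouse and QKI in human. All 37 symbols were found among 46882 genes counted in mouse lens and among 54838 genes counted in neural-stem-cell-derived lens progenitor cells (NLPCs). In the human lens epithelial line HLE-B3 the list came to 36 of 60880 genes, because OASL stood for both Oasl1 and Oasl2. Each experiment held 3 control and 3 deletion libraries, 18 in all.

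The lens groups were Nestin-CreERT2; QkL/+ mice (Ctrl) and Nestin-CreERT2; QkL/L littermates (Qk-iCKO), all on a C57BL/6 background, of both sexes, and all given tamoxifen on postnatal days 7 and 8, with lenses taken on postnatal days 17 to 19. Cre activity in these mice depended on the Nestin promoter and on tamoxifen, and loxP sites flanked exon 2 of Qk, with 1 floxed allele also carried by the controls. The paper's methods name Nestin-CreERT2; Qk+/+, Nestin-CreERT2; QkL/+ or QkL/L littermates as its controls in general. They do not say which of these gave the sequenced lenses. The NLPC groups were WT and Qk-/-, cultured from neural stem cells of postnatal day 1 whole brains. The paper's methods give Nestin-CreERT2; QkL/L as the genotype of the mice that supplied these stem cells. The deletion was induced with 100 nM 4-hydroxytamoxifen, before 6 days of Noggin and 12 days of bFGF, BMP4 and BMP7. Whether the WT cells carried the same alleles, and what they received in place of 4-hydroxytamoxifen, was not given in the sources used here. The HLE-B3 groups were WT and QKI KO, the knockout being made with lentiviral CRISPR-Cas9 followed by puromycin. HLE-B3 is an immortalised line, and whether the WT cells had received a vector or puromycin was not given in the sources used here.

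Interferons are secreted proteins that cells release on sensing foreign or misplaced nucleic acid. Type I interferon binds the IFNAR1 and IFNAR2 receptor chains, whose kinases JAK1 and TYK2 activate STAT proteins, and these join IRF9 in a complex that binds interferon-stimulated response elements in promoters. The induced proteins include sensors of RNA, further transcription factors, proteins that block or degrade viral RNA, and enzymes that attach or remove the ubiquitin-like protein ISG15, so that the genes are widely read together as a sign of interferon signalling.

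The response element carries direct repeats of GAAA, and the promoters of several of the genes below hold such repeats, called and not called alike. In RefSeq promoters of build GRCm38.p6, each 300 bases long from 250 bases before to 50 bases after the start, 27 of the 37 genes had an entry, and 12 of these 27 (44.4%) held GAAA-NN-GAAA (N is any base, and the hyphens only part the letters) on either strand. The share over all 27025 genes with a promoter of that length was 3.99%. The shorter STAT element TTC-NNN-GAA, whose letters read the same on both strands, was in 7 of the 27 (25.9%) and in 9.55% of all genes. Of the 8 genes called higher in Qk-iCKO lens, 5 had a promoter entry and 2 of these held the longer motif, Ifih1 and Bst2. Of the 11 called lower in NLPC libraries labelled Qk-/-, 9 had an entry and 4 held it, Ifit1, Ifit3, Gbp3 and Rsad2, while 6 of the 14 with an entry that were not called there also held it. The stretches around the matches are shown for these genes other than Bst2, since they carry the calls, and for Isg15, which had the longest run of repeats. Each is written on the strand that reads GAAA, with the matched bases in capitals.
Ifih1 (chr2:62646206-62646238, minus strand): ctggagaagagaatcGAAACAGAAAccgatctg
Ifit1 (chr19:34640770-34640809, minus strand): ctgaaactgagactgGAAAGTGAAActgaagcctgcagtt
Ifit1 (chr19:34640789-34640828, minus strand): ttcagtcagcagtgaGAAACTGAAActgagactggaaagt
Ifit3 (chr19:34583358-34583397, minus strand): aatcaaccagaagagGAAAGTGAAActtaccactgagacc
Ifit3 (chr19:34583392-34583431, minus strand): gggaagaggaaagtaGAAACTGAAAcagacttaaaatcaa
Gbp3 (chr3:142559984-142560029, minus strand): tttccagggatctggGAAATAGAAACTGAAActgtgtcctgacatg
Rsad2 (chr12:26456548-26456587, plus strand): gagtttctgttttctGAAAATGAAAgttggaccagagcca
Isg15 (chr4:156200860-156200911, minus strand): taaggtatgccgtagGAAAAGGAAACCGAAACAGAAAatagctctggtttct
The Ifit1 stretches overlap each other. A match describes letters in this window and says nothing of binding, and a promoter without one may hold the element elsewhere.

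Library totals ran from 10319320 to 16425331 counts in lens, from 28154202 to 68243360 in NLPCs and from 69190864 to 81384471 in HLE-B3. The count of Qk itself was not called lower in either mouse experiment. In lens it was 1549, 1491 and 1635 normalized counts in Ctrl and 1292, 1118 and 1361 in Qk-iCKO (log2 fold change -0.31, adjusted p = 0.20), each Qk-iCKO lens lying under each Ctrl lens, and in NLPCs it was higher, not lower, in the libraries labelled Qk-/- (log2 fold change 0.41, adjusted p = 0.0270). The gene count includes reads from every exon and only exon 2 was floxed, so it does not check the deletion. In HLE-B3, QKI was lower in the knockout (log2 fold change -1.34, adjusted p = 1.85e-11). Fold changes throughout are the deletion group against its control from edgeR's quasi-likelihood test, adjusted over all genes tested in that experiment, and a normalized count is a count scaled to the average effective library of its experiment. A gene is called where its adjusted p was under 0.05. In lens, 8 lens fibre markers summed to 273746 to 288545 CPM in Ctrl (CPM being counts scaled to a common effective library size) and to 128986, 241792 and 230440 CPM in Qk-iCKO, all under Ctrl, with 1 of 7 tested called lower. The part of this shift in the lens results was not tested. By contrast, in NLPCs the same markers summed to 0.791 to 4.2 CPM over the 6 libraries while 5 astrocyte markers summed to 6747 to 9968 CPM. In HLE-B3 the lens fibre markers summed to 1.53 to 5.63 CPM, and 6 lens epithelium markers to 1400 to 1618 CPM.

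Among the interferon-stimulated genes, those called were all higher in the Qk-iCKO lens, and most of those called in NLPCs (libraries labelled Qk-/-) and in HLE-B3 cells (QKI KO) were lower. In lens, 8 genes were called higher and 0 lower of 21 tested, in NLPCs 2 higher and 11 lower of 34 tested, and in HLE-B3 2 higher and 19 lower of 34 tested. The share of all tested genes called higher was 8.38% in lens, 4.74% in NLPCs and 17% in HLE-B3, and the share called lower was 3.88%, 5.96% and 16.3%. The median log2 fold change of the tested members was 1.36 in lens, -0.53 in NLPCs and -0.51 in HLE-B3, against medians over all tested genes of 0.0064, 0.040 and -0.020. The lens median rests in part on genes that passed the minimum count only because they were high in Qk-iCKO, as set out below.

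**Figure D1:**
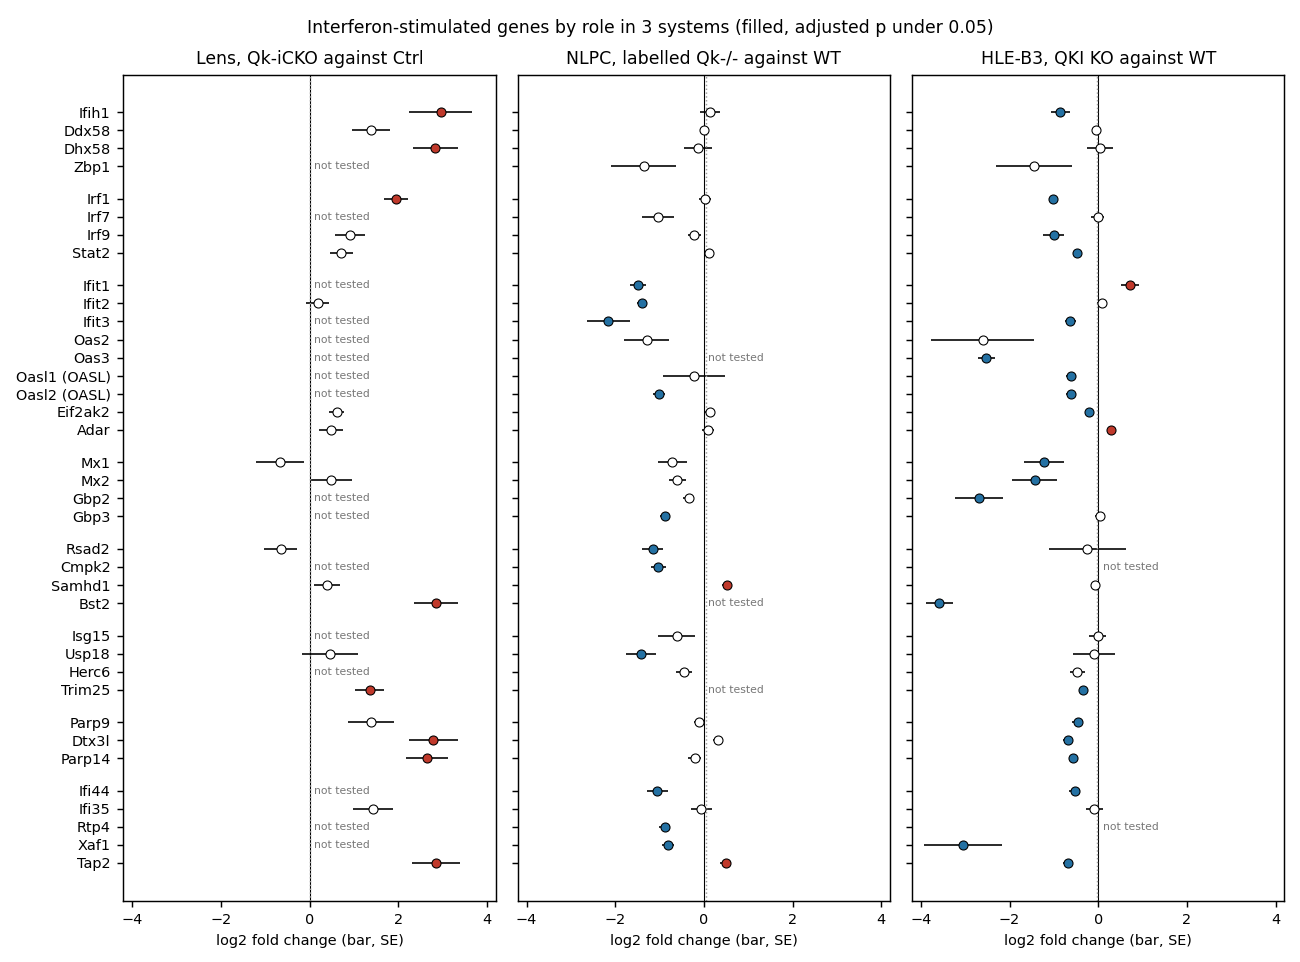
Log2 fold change of deletion against control (x axis, bar is the SE) for each of the 37 genes (y axis, grouped by role) in lens, NLPC and HLE-B3, with called genes filled red (higher) or blue (lower) and the median of all genes as a dotted line. The called genes lie to the right in lens, with 8 higher, and mostly to the left in NLPC and HLE-B3, with 11 and 19 lower.

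The lens held few reads of these genes. Summed over the 3 Ctrl lenses, the raw counts ran from 1 to 325, with 12 of 37 genes under 10 and 31 under 100. Of the 21 tested, 12 reached the minimum count in all 3 Ctrl lenses, and 6 did so in no Ctrl lens and in all 3 Qk-iCKO lenses. Those 6 were Ifih1, Dhx58, Bst2, Dtx3l, Parp14 and Tap2, which had to be higher in order to be tested, and they make up 6 of the 8 called. With every gene of at least 1 count kept, which selects no direction, all 37 could be tested, 35 had a fold change above 0, and 15 were called higher and 0 lower, where 7.65% of all genes were called higher and 2.48% lower. DESeq2 called 10 of 37 higher and 0 lower, and gave no adjusted p for 3 of the 37. Of the 14750 genes with an adjusted p there, 9.62% were called higher and 4.37% lower. At an unadjusted p under 0.05, 14 of the 21 were higher and 0 lower, beside 17.3% and 11.4%. Leaving out Ctrl replicate 1, 2 or 3 reduced the called genes to 2 each time.

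Transcription factors and the ubiquitin system gave the 2 called genes that reached the minimum count in Ctrl lenses. Irf1 encodes a transcription factor that drives many of the other genes and lies at chr11:53770014-53778374 (GRCm38). It stood at 23.5, 20.2 and 17.7 normalized counts in Ctrl and at 89.2, 90.9 and 55.9 in Qk-iCKO (log2 fold change 1.95 ± 0.28 SE, adjusted p = 0.00554). The groups did not overlap, and it was the only one of the 8 that remained called with each single library left out in turn, the adjusted p then lying between 0.0054 and 0.032. Trim25 encodes a ubiquitin ligase that acts on the RNA sensor RIG-I. Its normalized counts were 16.0, 21.1 and 22.1 in Ctrl and 69.5, 47.3 and 35.1 in Qk-iCKO (log2 fold change 1.36 ± 0.33, adjusted p = 0.0365), again without overlap. Irf9 and Stat2, which encode parts of the interferon-activated complex, had log2 fold changes of 0.91 and 0.72 and were not called (adjusted p = 0.121 for each). Neither gene's groups overlapped, but all Qk-iCKO lenses lay above all Ctrl lenses in 18.2% of all tested genes.

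Of 3 tested sensors of RNA, 2 were called higher (8.38% of all tested genes were), each with few Ctrl reads. Ifih1 encodes MDA5, which recognises long double-stranded RNA, and lies at chr2:62595798-62646255. It had 0, 3 and 5 reads in Ctrl and 20, 25 and 11 in Qk-iCKO, or 0, 2.75 and 4.42 against 15.8, 31.1 and 14.3 normalized counts (log2 fold change 2.96 ± 0.71, adjusted p = 0.0356). Dhx58 encodes LGP2, a relative of MDA5 that lacks its signalling domain. It had 3.2, 1.83 and 0.883 normalized counts in Ctrl and 14.2, 17.4 and 11.7 in Qk-iCKO (log2 fold change 2.84 ± 0.50, adjusted p = 0.0119). Ddx58, which encodes RIG-I, had more reads in Ctrl than either and was not called, at 23.5, 21.1 and 13.2 against 32.4, 82.2 and 37.7 (adjusted p = 0.0841). Every Qk-iCKO lens was above every Ctrl lens in Ddx58, as in 18.2% of all tested genes, whereas in Ifih1 and Dhx58 the minimum count, reached in Qk-iCKO lenses alone, fixed that order.

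Of 3 tested nucleotide and membrane effectors, 1 was called higher in lens (beside 8.38% of all tested genes), and Tap2 was called among the genes of other roles. Bst2 and Tap2 reached the minimum count only in Qk-iCKO lenses. Bst2 encodes tetherin, which holds budding virus particles at the cell surface, and lies at chr8:71534255-71537456. Its normalized counts were 2.13, 4.59 and 4.42 in Ctrl and 21.3, 43.6 and 19.5 in Qk-iCKO (log2 fold change 2.85 ± 0.49, adjusted p = 0.0113). Tap2, a subunit of the transporter that loads peptides for MHC class I, lies at chr17:34203527-34216321. It stood at 9.6, 4.59 and 7.06 in Ctrl and at 81.3, 49.8 and 22.1 in Qk-iCKO (log2 fold change 2.86 ± 0.54, adjusted p = 0.0157), with the 3 Qk-iCKO lenses spread more widely than those of Irf1.

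Dtx3l, Parp9 and Parp14 lie side by side on chromosome 16. Dtx3l encodes a ubiquitin ligase that pairs with the ADP-ribosyltransferase-like protein PARP9, and Parp14 a larger member of that family. Dtx3l had 4.26, 0.917 and 2.65 normalized counts in Ctrl and 26.1, 14.9 and 13.0 in Qk-iCKO (log2 fold change 2.79 ± 0.56, adjusted p = 0.0186). Parp14 had 5.33, 5.50 and 7.95 in Ctrl and 25.3, 64.8 and 31.2 in Qk-iCKO (log2 fold change 2.64 ± 0.47, adjusted p = 0.0123). Parp9, whose start overlaps that of Dtx3l on the opposite strand, was not called at log2 fold change 1.39 (adjusted p = 0.132), and its groups overlapped through the third Qk-iCKO lens at 20.8 against a highest Ctrl value of 24.5. How the counting treated strand where the genes overlap is not given in the sources used here.

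**Figure D2:**
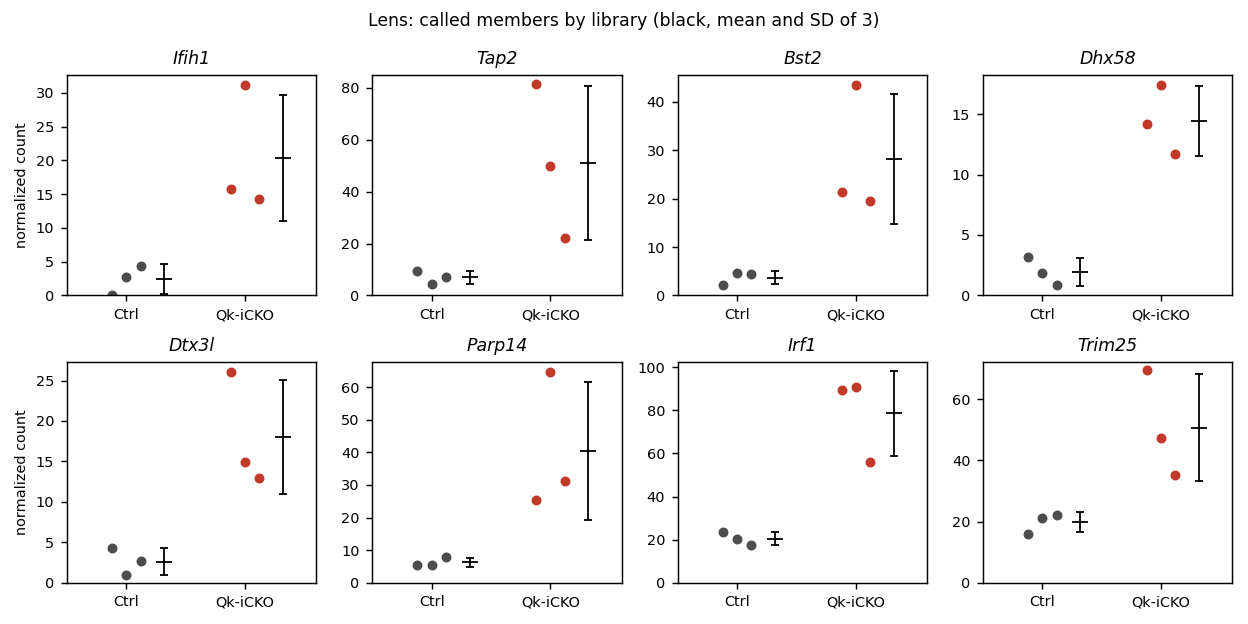
Normalized counts (y axis, linear from 0) of the 8 genes called higher in Qk-iCKO lens, one panel a gene, with 1 point a library and the mean and SD of 3 in black. In every panel the 3 Qk-iCKO lenses lie above the 3 Ctrl lenses, an order that the minimum count fixed for all but Irf1 and Trim25, from Dhx58, at 11.7 to 17.4 in Qk-iCKO, to Irf1, at 55.9 to 90.9.

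Several classical interferon-stimulated genes did not follow this pattern in lens. Rsad2 encodes viperin, which makes a chain-terminating nucleotide, and was the most abundant member per length in Ctrl lens, at 1.84 ± 0.25 CPM per kilobase (SD, n = 3). Its normalized counts were 109, 87.1 and 113 in Ctrl and 30.8, 95.9 and 72.7 in Qk-iCKO (log2 fold change -0.65, adjusted p = 0.300). The groups overlapped, as they did for the antiviral GTPase gene Mx1 (log2 fold change -0.66, adjusted p = 0.475), the other member below 0. Ifit2, which encodes an RNA-binding translation inhibitor, was nearly level at 25.6, 20.2 and 20.3 against 25.3, 24.9 and 24.7. After Rsad2 came Eif2ak2, the double-stranded RNA kinase PKR, at 1.15 ± 0.12 CPM per kilobase, and Adar, the RNA-editing enzyme, at 0.722 ± 0.204. Rsad2 and Eif2ak2 each stood clear of the next gene in all 3 Ctrl lenses, and the other 34 neighbouring pairs in that order overlapped.

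Among the 16 members with too few lens reads for the test, the largest differences were in single lenses or from almost no Ctrl reads. Isg15, the ubiquitin-like modifier, had 0, 0 and 1 reads in Ctrl and 0, 8 and 0 in Qk-iCKO, so that all its Qk-iCKO reads came from the second lens. Irf7, the transcription factor that amplifies interferon production, had 5.33, 4.59 and 5.30 normalized counts in Ctrl and 8.68, 61.0 and 10.4 in Qk-iCKO, again highest in the second. Rtp4, a chaperone-like protein of the endoplasmic reticulum, had 2 reads in the Ctrl group and 35 in the Qk-iCKO group, a ratio of 19.5 with an exact 95% counting interval of 5.0 to 167. This interval covers counting error only. Qk-iCKO replicate 2 was the highest of the 3 Qk-iCKO lenses in 14 of the 21 tested members and the lowest in none. The median deviation of tested members from the Ctrl mean was 0.85, 1.47 and 0.75 (log2) in Qk-iCKO replicates 1 to 3, and the median fold change without replicate 2 was 0.87.

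Markers of leukocytes and macrophages moved with the lens result. All 12 tested of 14 listed were called higher in Qk-iCKO, although 11 of these reached the minimum count in no Ctrl lens, and the list summed to 3.70 to 6.71 CPM in Ctrl and 193 to 243 CPM in Qk-iCKO. The pan-leukocyte gene Ptprc had 1.07, 0 and 0.883 normalized counts in Ctrl and 35.5, 42.3 and 72.7 in Qk-iCKO. Of 8 lymphocyte and neutrophil markers, 5 were listed at 0 in all 6 lenses. Endothelial markers summed to 3.06 to 4.98 CPM in Ctrl and 12.8 to 22.8 in Qk-iCKO, with 2 of 4 tested called higher, and fibroblast markers to 63.6 to 79.1 and 103 to 173 CPM. Pigment cell markers summed to 9.26, 7.47 and 4.25 CPM in Ctrl and 138, 23.5 and 8.67 in Qk-iCKO. Retinal photoreceptor markers summed to 71.8, 525 and 1.92 CPM in Ctrl and 77.3, 32.6 and 12.8 in Qk-iCKO. Lens epithelium markers summed to 22531 to 32047 CPM in Ctrl and 14714 to 19842 in Qk-iCKO. No pigment, photoreceptor or epithelium marker was called. The lens with the largest leukocyte sum was Qk-iCKO replicate 3, which had the smallest member median, and the largest member median was in replicate 2. In whole lenses, more cells of a type and more RNA per cell cannot be told apart, and the part of these cells in the interferon-stimulated genes was not tested.

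**Figure D3:**
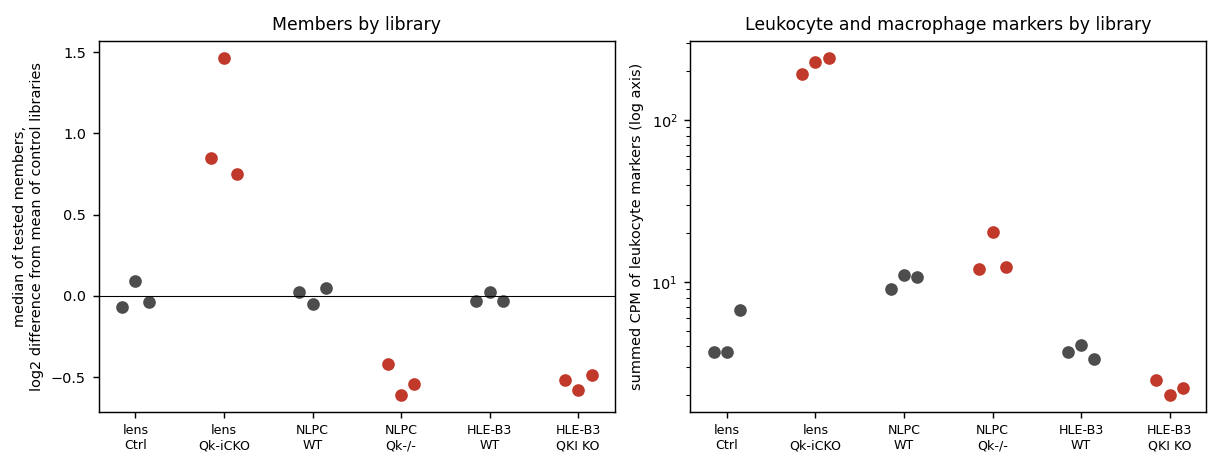
Left, the median over tested members of the log2 difference from the mean of the control libraries (y axis), 1 point a library in 6 groups, controls grey and deletions red. Right, the summed CPM of 14 leukocyte and macrophage markers (y axis, log scale) in the same libraries: in lens it rises from 3.70 to 6.71 in Ctrl to 193 to 243 in Qk-iCKO, and in NLPCs from 8.99 to 11.1 in WT to 12.1 to 20.5 in the libraries labelled Qk-/-, while in HLE-B3 it goes from 3.37 to 4.10 in WT to 2.01 to 2.50 in QKI KO.

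The other genes of the pathway were read in lens from preset lists. No interferon ligand was detected, since 10 of 11 ligand genes were listed at 0 in all 6 lenses and Ifnk had 2 reads, which at the lens totals allows 3 reads a library for a gene at 0. Over all tested genes 8.38% were called higher and 3.88% lower, and receptors and kinases gave 3 of 8 tested higher, namely Ifnar2 (log2 fold change 1.15, adjusted p = 0.0135), the type II receptor chain Ifngr1 (1.23, adjusted p = 0.0140) and Jak2 (1.10, adjusted p = 0.00925). Of the genes that induce interferon, 5 of 14 were higher, but all 5 reached the minimum count in no Ctrl lens and so had to be higher to be tested. Of these, Tlr4, Tlr7, Irf5 and Tmem173 (STING) had 8, 2, 5 and 9 Ctrl reads in all. The remaining one, Tlr8, had 0 reads in Ctrl and 115 in Qk-iCKO, at least 42.7-fold higher against a floor of 3 reads over the group.

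Of 7 tested STAT and IRF genes outside the members, 2 were called higher and 1 lower. Stat3, which carries cytokine signals of the interleukin-6 type, was higher, at 232, 200 and 190 normalized counts in Ctrl and 723, 527 and 544 in Qk-iCKO (log2 fold change 1.53 ± 0.18, adjusted p = 0.00241), and Irf8, a factor of myeloid cells, was higher too (1.42, adjusted p = 0.0366). Negative regulators were higher in 4 of 12, among them the STAT feedback inhibitors Socs3 (2.52, adjusted p = 0.00173) and Socs1 (2.64, adjusted p = 0.0269). Of these 4, 2 reached the minimum count in all 3 Ctrl lenses, and 1 did so in none and had to be higher to be tested. Of 62 other listed interferon-stimulated genes, 26 were tested, 14 were higher and 0 lower (8.38% and 3.88% of all tested genes). Of the 14, 7 reached the minimum count in all 3 Ctrl lenses, and 6 did so in none and had to be higher to be tested. Those with the smallest p were Ifi30, Ube2l6, Ifitm2 and Ddx60. Ube2l6, the conjugating enzyme for ISG15, rose with log2 fold change 1.37 (adjusted p = 0.00684).

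In NLPCs the reads were more numerous, with raw control totals of 11 to 24706 and only 4 of 37 genes under 100, and all 34 tested members reached the minimum count in each of the 3 WT libraries. The genes lower in the libraries labelled Qk-/- were led by the IFIT family, whose products bind viral RNA ends and block its translation. Ifit2, Ifit3 and Ifit1 lie in a row on the plus strand of chromosome 19, at chr19:34550694-34576419, chr19:34583531-34588731 and chr19:34640871-34650009. Ifit1 had 756, 691 and 791 normalized counts in WT and 330, 212 and 253 in the libraries labelled Qk-/- (log2 fold change -1.49 ± 0.19, adjusted p = 0.00273). Ifit2 had 1794, 1971 and 1851 in WT and 680, 693 and 763 in those labelled Qk-/- (-1.39 ± 0.11, adjusted p = 0.000446). In both genes the libraries of a group lay close together and the groups far apart. Ifit3 showed the lowest fold change, at 418, 474 and 427 in WT against 132, 25.8 and 133 (-2.15 ± 0.49, adjusted p = 0.0303), with replicate 2 of the libraries labelled Qk-/- well under the other two. Ifit3b, a close copy of Ifit3 that may share its reads, was lower as well (-1.13, adjusted p = 0.0142).

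In the ISG15 and ubiquitin system 1 of 3 tested genes was lower in the same libraries, and of 3 nucleotide and membrane effectors 2 were lower and 1 higher. Of all tested genes 5.96% were lower and 4.74% higher. Usp18 encodes the protease that removes ISG15 and dampens the type I receptor. It stood at 202, 235 and 262 normalized counts in WT and 110, 51.6 and 97.4 in the libraries labelled Qk-/- (log2 fold change -1.42 ± 0.33, adjusted p = 0.0330). Rsad2 and Cmpk2 are neighbours on chromosome 12 that encode viperin and a mitochondrial nucleotide kinase. Rsad2 had 320, 314 and 304 in WT and 110, 175 and 137 in those labelled Qk-/- (-1.15 ± 0.24, adjusted p = 0.0202). Cmpk2 had 520, 488 and 492 in WT and 207, 273 and 257 (-1.03 ± 0.17, adjusted p = 0.00802). No library of one group reached the range of the other in these 3 genes. Isg15 itself was not called, at 92.3, 82.9 and 67.5 in WT and 67.8, 44.2 and 46.4 (adjusted p = 0.394).

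The remaining NLPC calls were spread over the other roles. Oasl2 encodes an oligoadenylate synthetase-like protein, and its counts were 750, 760 and 874 in WT and 398, 385 and 394 in the libraries labelled Qk-/- (log2 fold change -1.02 ± 0.13, adjusted p = 0.00286). Gbp3, a guanylate-binding GTPase, had 1533, 1654 and 1663 in WT and 863, 870 and 898 (-0.88 ± 0.10, adjusted p = 0.00201). In both genes the values within a group lay close together. Xaf1, an interferon-induced gene tied to cell death, was among the most abundant members, at 3425, 3594 and 3292 in WT and 2187, 1567 and 2117 (-0.81 ± 0.14, adjusted p = 0.00934). Rtp4 stood at 658, 653 and 689 in WT and 347, 383 and 353 (-0.89 ± 0.13, adjusted p = 0.00541). Ifi44, a GTPase-like gene of uncertain role, had 452, 342 and 382 in WT and 206, 142 and 218 (-1.05 ± 0.23, adjusted p = 0.0254). Again no values overlapped.

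**Figure D4:**
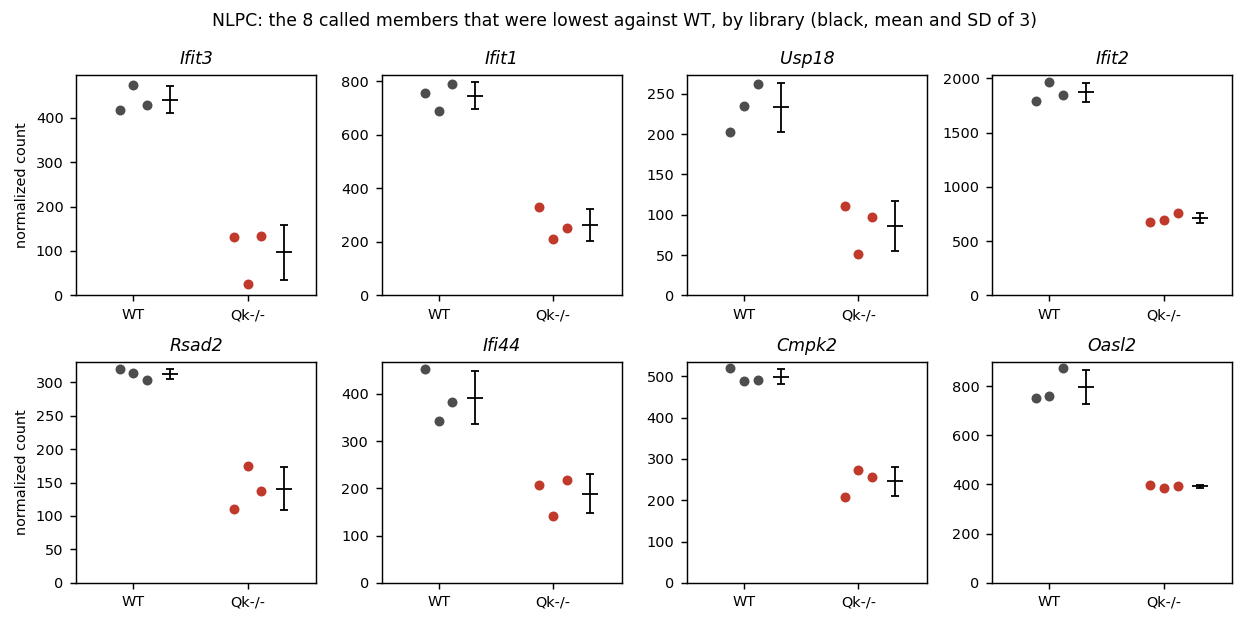
Normalized counts (y axis, linear from 0) of the 8 members with the lowest fold changes among those called in NLPCs, one panel a gene, with 1 point a library and the mean and SD of 3 in black; the right-hand group is that labelled Qk-/-. Ifit2 shows the clearest separation, from 1794 to 1971 in WT to 680 to 763.

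A pair of members went the other way in NLPCs. Samhd1, which breaks down deoxynucleotides, had 1525, 1433 and 1508 normalized counts in WT and 2062, 2282 and 2066 in the libraries labelled Qk-/- (log2 fold change 0.52 ± 0.10, adjusted p = 0.0168). Tap2 had 1554, 1208 and 1491 in WT and 1978, 1969 and 2061 (0.50 ± 0.12, adjusted p = 0.0408), but in the fit blocked on replicate number its adjusted p was 0.0509, which left 1 member called higher in place of 2 (4.8% of all genes were called higher there). Tap2 was the only member called in both mouse experiments. No sensor and no transcription factor was called, of 4 and 4 tested: Ddx58, Irf1 and Stat2 had log2 fold changes of -0.0013, 0.024 and 0.12, while Irf7 was lower without a call (-1.03, adjusted p = 0.122). The PARP9 group also gave 0 calls of 3. Over all tested genes 4.74% were called higher and 5.96% lower, so 0 calls in sets of 3 or 4 genes tell little.

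Group values of all 37 members in NLPCs fell apart downward in 18 and upward in 3, where 19.3% and 15.9% of tested genes did so. The 4 lower genes that held their call with each single library left out in turn were Ifit1, Ifit2, Oasl2 and Gbp3, and the count of lower calls ranged from 4, without WT replicate 3, to 14, without replicate 2 of the libraries labelled Qk-/-. Without WT replicates 1 and 2 it was 5 and 6, and without replicate 1 of those labelled Qk-/- it was 7. Cell markers moved in these cultures too. Among astrocyte markers Slc1a3 and Gfap were lower (log2 fold change -1.66 and -1.38, adjusted p = 0.000242 and 0.00507) and Aqp4 higher (0.74, adjusted p = 0.0012), the neuronal gene Snap25 was higher with 43 reads in WT and 2236 in the libraries labelled Qk-/-, and the neural stem cell gene Hes5 was lower (-3.49, adjusted p = 0.00432). Leukocyte markers summed to 8.99 to 11.1 CPM in WT and 12.1 to 20.5 in those labelled Qk-/-, with 0 of 6 tested called. The part of these changes in cell markers was not tested.

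Few upstream genes were called in NLPCs, where 4.74% of all tested genes were called higher and 5.96% lower. Ligands were again untestable, the largest being Ifnl3 with 1 read in WT and 43 in the libraries labelled Qk-/-. The whole ligand list summed to 0.251, 1.16 and 0.0337 CPM in replicates 1 to 3 of those libraries, so replicate 2 was the highest. Of 9 receptors and kinases, Il10rb alone was called, higher with log2 fold change 1.01 (adjusted p = 0.00940). Tlr4 (0.70, adjusted p = 0.00582) and the kinase gene Ikbke (0.91, adjusted p = 0.0254) were the 2 of 13 called among inducers of interferon. None of the 6 tested STAT and IRF genes outside the members was called. Negative regulators gave 2 of 12 higher, the phosphatase gene Ptpn6 (0.95, adjusted p = 0.0345) and Nlrc5 (0.72, adjusted p = 0.0463). The other listed interferon-stimulated genes were divided, with 5 higher and 4 lower of 52 tested (4.74% and 5.96% of all tested genes). Gbp9 and Gbp4, relatives of Gbp3, were higher (0.93, adjusted p = 0.00067, and 1.26, adjusted p = 0.00706), as was Trim30a (0.80, adjusted p = 0.0044), while Tdrd7 was lower (-0.76, adjusted p = 0.00406).

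The difference between the mouse experiments was tested directly. In the joint fit, 36 members were tested, 34 had a lower fold change in NLPCs than in lens, and 13 differed at an adjusted p under 0.05, all in that direction, as the libraries are labelled. Over all genes, 5.33% differed in that direction and 3.21% in the other. Irf1 gave a difference of log2 fold changes of -1.84 ± 0.28 (adjusted p = 0.0021) and Ifit2 of -1.49 ± 0.23 (adjusted p = 0.0022), the first because it was higher in lens and level in NLPCs, and the second because it was level in lens and lower in NLPCs. For Parp14 the difference was -2.75 ± 0.49 (adjusted p = 0.0047). Blocked on replicate number, 14 differed, beside 6.15% of all genes in the same direction: Irf7 and Xaf1 lost the call (adjusted p = 0.0536 and 0.0531), and Ddx58, Herc6 and Ifi35 gained it (adjusted p = 0.0473, 0.0352 and 0.0367). In the lens alone, the block added Ifi35 to the called genes (adjusted p = 0.0190). Mx1 and Samhd1 had the only differences above 0, at 0.047 and 0.21, and neither was called.

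**Figure D5:**
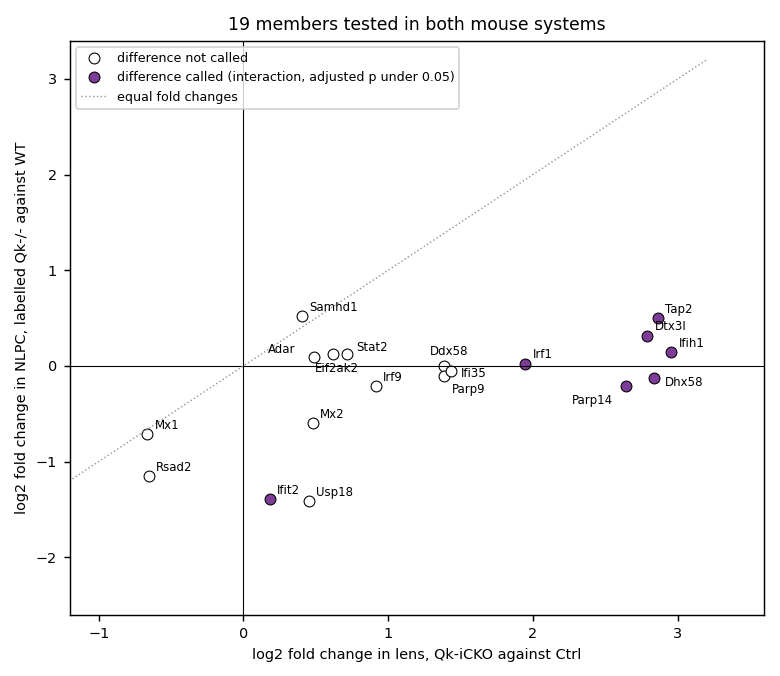
Log2 fold change in lens (x axis) against that in NLPCs (y axis) for the 19 members tested in both, purple where the joint fit called a difference. Most points lie under the dotted line of equal fold changes, with Irf1 at 1.95 in lens and 0.024 in NLPCs and Ifit2 at 0.18 and -1.39.

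In HLE-B3 cells the largest decreases among called members were in BST2, XAF1, GBP2 and OAS3, single genes of different roles. Of the tested nucleotide and membrane effectors 1 of 3 was called lower, and of the GTPases 3 of 4. Of the 8 RNA binding and decay effectors 4 were called lower and 2 higher. Over all tested genes 16.3% were called lower and 17% higher. BST2 lies at chr19:17513748-17516439 (GRCh37) and had 408, 287 and 276 normalized counts in WT and 25.1, 18.1 and 37.2 in QKI KO (log2 fold change -3.58 ± 0.30, adjusted p = 1.21e-07). OAS3, which makes the oligoadenylates that activate RNase L, had 498, 650 and 564 in WT and 120, 91.7 and 86.5 in QKI KO (-2.52 ± 0.19, adjusted p = 3.53e-08). Each group was separate by a wide margin. GBP2 had 58.6, 73.7 and 113 in WT and 19.1, 13.9 and 5.03 in QKI KO (-2.68 ± 0.54, adjusted p = 0.000978). XAF1 had 30.7, 43.4 and 39.0 in WT and 0, 3.2 and 10.1 in QKI KO (-3.05 ± 0.88, adjusted p = 0.0129), so its fold change rests on 13 reads in the knockout. It reached the minimum count in all 3 WT libraries and in 0 QKI KO libraries, and so had to be lower to be tested. MX1 and MX2, dynamin-like GTPases that trap viral particles, were lower at 79.4, 98 and 142 against 45.2, 17.1 and 73.4 (-1.23 ± 0.45, adjusted p = 0.0455) and at 55.0, 86.8 and 67.7 against 38.2, 10.7 and 28.2 (-1.44 ± 0.50, adjusted p = 0.0364). The MX1 groups were apart by a few counts only, and the MX2 groups by somewhat more.

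Of the transcription factors 3 of 4 were lower in QKI KO, and of the sensors 1 of 4, beside 16.3% of all tested genes. A count of 1 in 4 is near that share. IRF1 had 3769, 3628 and 3324 normalized counts in WT and 1821, 1725 and 1719 in QKI KO (log2 fold change -1.03 ± 0.07, adjusted p = 2.01e-08). IRF9 had 210, 302 and 226 in WT and 123, 105 and 140 in QKI KO (-1.01 ± 0.23, adjusted p = 0.00289), and STAT2 was also lower (-0.49, adjusted p = 1.75e-05). IFIH1 had 229, 210 and 206 in WT and 112, 133 and 113 in QKI KO (-0.85 ± 0.22, adjusted p = 0.00687). None of these overlapped between groups. DDX58, DHX58 and IRF7 were level, with log2 fold changes of -0.054, 0.037 and -0.013 and overlapping groups.

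The PARP9 group, TAP2 and the RNA-binding effectors completed the calls. DTX3L had 1595, 1671 and 1749 normalized counts in WT and 1096, 1075 and 936 in QKI KO (log2 fold change -0.69 ± 0.09, adjusted p = 2.32e-05). PARP9 and PARP14 were lower with it, so all 3 of that group were called lower, beside 16.3% of all tested genes. The 3 genes lie on the same chromosome in human as well, chromosome 3. TAP2 had 1219, 1320 and 1281 in WT and 894, 666 and 829 in QKI KO (-0.68 ± 0.11, adjusted p = 0.000197). It was higher in both mouse experiments. IFIT3 had 1064, 1059 and 1146 in WT and 615, 729 and 776 in QKI KO (-0.62 ± 0.11, adjusted p = 0.00037), and OASL had 929, 1052 and 951 in WT and 582, 660 and 688 (-0.60 ± 0.11, adjusted p = 0.000534). IFIT1, next to IFIT3 on chromosome 10, went the other way at 296, 301 and 182 in WT and 482, 429 and 373 in QKI KO (0.72 ± 0.20, adjusted p = 0.00942). Their groups were apart in opposite directions. The remaining calls were IFI44, TRIM25 and EIF2AK2, with log2 fold changes of -0.53, -0.35 and -0.20, and ADAR, which was higher at 0.30. EIF2AK2 alone of the called genes had overlapping groups.

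Of the 36 genes, 20 had all QKI KO libraries under all WT libraries and 2 had them above, where 22.6% and 22.0% of tested genes did so. With each single library left out in turn, 15 of the 19 lower calls held, and XAF1, MX1, MX2 and EIF2AK2 did not hold under every omission. IFIT1 lost its call as well under 1 of them (adjusted p up to 0.055), while ADAR kept it. When the median of the 50 nearest tested genes on the chromosome was taken from each fold change, the median of the members was -0.52. CMPK2 had 6, 0 and 16 reads in WT and 0 in all 3 QKI KO libraries, at least 6.98-fold lower against a floor of 3 reads over the group, and RTP4 was listed at 0 in all 6. Leukocyte and macrophage markers were near absent, summing to 3.37 to 4.10 CPM in WT and 2.01 to 2.50 in QKI KO, most of it CSF1R.

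The rest of the pathway was split in HLE-B3. IFNE, an epithelial type I interferon, was the only ligand with enough reads and was lower, at 42.4, 102 and 118 normalized counts in WT and 33.2, 32 and 22.1 in QKI KO (log2 fold change -1.58, adjusted p = 0.0127). Among 9 receptors and kinases, IFNGR2 and JAK2 were higher (0.83, adjusted p = 2.78e-07, and 0.44, adjusted p = 0.00173) and JAK1 and TYK2, the kinases of the type I receptor, lower (-0.35, adjusted p = 0.000135, and -0.23, adjusted p = 0.0136). The 2 called genes of the list of STAT and IRF genes were IRF2BP2 (-0.60, adjusted p = 1.1e-06) and IRF2BP1 (0.23, adjusted p = 0.0437), which encode corepressors and not interferon regulatory factors themselves. Of 12 tested inducers of interferon, TBK1 and IRF3 were higher (0.30 and 0.20, adjusted p = 0.00278 and 0.0479) and TRAF3 lower (-0.20, adjusted p = 0.0376). Negative regulators gave 3 higher and 3 lower of 12, SOCS3 being lower at -1.19 (adjusted p = 1.7e-08), against a higher Socs3 in lens. Among 43 other tested interferon-stimulated genes 7 were higher and 18 lower (17% and 16.3% of all tested genes), with LGALS3BP (-1.46, adjusted p = 5.87e-08) and APOL6 (-0.95, adjusted p = 6.26e-06) lower and ZNFX1 (0.58, adjusted p = 1.26e-06) and TOR3A (0.84, adjusted p = 9e-06) higher.

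Across the 3 experiments, which share no libraries, the genes called differed in part. Ifit3, Oasl2, Ifi44 and Xaf1 were lower both in the Qk-/- libraries of the NLPCs, as labelled, and in the HLE-B3 knockout, which is 4 of the 11 lower in NLPCs (36.4%) and of the 19 lower in HLE-B3 (21.1%). Of these, XAF1 had to be lower in HLE-B3 to be tested there. Cmpk2 and Rtp4, also lower in NLPCs, were not tested in HLE-B3. Among all members tested in HLE-B3, 19 of 34 (55.9%) were lower, beside 16.3% of all tested genes there. Of the 8 higher in lens, 7 were lower in HLE-B3, namely Ifih1, Irf1, Bst2, Trim25, Dtx3l, Parp14 and Tap2. All of these but Irf1 and Trim25 had to be higher in lens to be tested there. Of the same 8, 0 were lower in NLPCs, where Bst2 and Trim25 were not tested. Of the 11 lower in NLPCs, 8 were not tested in lens. Ifit1 was lower in NLPCs and higher in HLE-B3. Ddx58 and Ifi35 were tested in all 3 and called in none. Whether the fold changes of HLE-B3 differ from those of the mouse experiments was not tested, because the genes were counted on different genomes. The most abundant members per length in the controls were Eif2ak2 in NLPCs, at 26.6 ± 1.6 CPM per kilobase, and ADAR in HLE-B3, at 23.7 ± 0.9 (SD, n = 3), each clear of the next gene in every control library.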

How the data were processed

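RNA-seq was analysed from 18 libraries, 3 in each of 6 groups named by the labels. The deposited values were raw counts of reads per gene. The authors made them from stranded paired-end reads aligned with STAR 2.6.1b to mm10 or hg19 and counted with HTSeq 0.11.0, while the submitters' processing notes also list HISAT2 2.0.4 and featureCounts without a role, so the counter of the lens table is not settled. Such counting drops or splits reads of near-identical genes. Genes with at least 10 counts at the median depth in 3 libraries were kept, scaled by TMM and tested per experiment with edgeR 4.0.16 in R 4.3.3 (quasi-likelihood, Benjamini-Hochberg over all genes), and lens and NLPCs jointly with an interaction term. The procedure was tested on simulated data. The study describes its animal and cell line replicates as independent in general terms, not library by library, and p-values measure the spread between these samples. Members and gene lists were chosen with earlier results of these data known. Values of every library are given for called members, at most the 14 of largest fold change per experiment, and for members called in both mouse experiments. Pathway genes are named, at most 4 a list, by smallest p. Deviations of same-numbered libraries had Pearson correlations of 0.13 to 0.52 in lens and 0.12 to 0.32 in NLPCs. Differently numbered pairs ranged from -0.39 to 0.28 in lens and from -0.30 to 0.23 in NLPCs, so these ranges overlap and a pairing is not established. The reported calls come from fits without pairing, and a fit blocked on replicate number was an alternative. DESeq2 1.42.0, other scalings and filters and the omission of single libraries were tried. Gene spans came from GENCODE annotation of GRCm38 and GRCh37, promoters from RefSeq. Some items are not reported here.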

Additional observations from a re-analysis of the deposited data

Results flagged for a closer look

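The deletion effect differed between the mouse experiments in 13 members by the test of the difference itself, always with the lower fold change in NLPCs as labelled, where the libraries labelled Qk-/- had more counts of Qk than WT. The difference of log2 fold changes, NLPC minus lens, was -1.84 in Irf1, -1.49 in Ifit2, -2.75 in Parp14, -2.45 in Dtx3l, -2.31 in Tap2, -2.75 in Ifih1 and -2.95 in Dhx58, all of which were also tested in each experiment alone. All of these but Irf1 and Ifit2 reached the minimum count in no Ctrl lens and had to be higher in Qk-iCKO to be tested in lens alone. Their sizes are imprecise too, the Ctrl lenses holding 3, 2 and 1 reads of Dhx58. It was -4.09 in Ifit3, -5.09 in Rtp4, -3.32 in Irf7, -2.71 in Gbp2, -2.6 in Gbp3 and -1.85 in Xaf1, which had too few reads for the test in lens alone, so these sizes are imprecise: the Ctrl lenses held 2 reads of Rtp4 and 6 of Ifit3 in all.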

How the results depend on the processing

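No called member, called difference or median changed direction under any alternative tried. Values near 0 that were not called were not followed across alternatives. In lens, the 8 members called higher became 15 with every gene of at least 1 count kept and 2 with at least 10 counts required in every library, where the median fold change was 0.73. Leaving out single libraries gave 2 to 10 higher calls and medians of 0.87 to 1.62. Scaling to total counts alone shifted the median of all lens genes by 0.29, and the members then lay 1.30 above it. In NLPCs, the 2 higher calls became 1 with total counts alone or with the replicate block, 0 with a change of at least 1.5-fold required and 0 to 3 with single libraries left out, while the lower calls ranged from 4 to 14 and the median from -0.53 to -0.39 with single libraries left out, and the median was -0.41 with at least 10 counts in every library. Qk in NLPCs was 0.39 (adjusted p = 0.203) with every gene of at least 1 count kept, and 0.37 to 0.48 with single libraries left out. In HLE-B3, the 2 higher calls became 1 with a 1.5-fold minimum and 1 to 2 with single libraries left out, and the median was -0.56 with total counts alone. The 13 differences between lens and NLPCs became 20 with every gene of at least 1 count kept and 8 to 16 with single libraries left out, their median of -1.93 then lying between -2.09 and -1.48. Except for the values given beside Ifi35, Tap2 and the differences, the replicate block changed no call in lens or NLPCs. In HLE-B3, where same-numbered libraries correlated between -0.049 and 0.061, the samples share only a number, and the block gave 2 higher and 19 lower calls, EIF2AK2 losing its call (adjusted p = 0.0551) and HERC6 gaining one (0.0442, against 0.0520). The cause of each change was not tested, apart from the numbers of genes or libraries that the alternatives themselves remove. Depth limits the lens most, since 31 of 37 members had fewer than 100 Ctrl reads.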
